A study of Homo sapiens with 36 samples.

Results

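The effect of removing DNMT1 on the transcriptome of HCT116 cells, a human colorectal carcinoma line, was followed from day 2 to day 8 of continuous degradation, as the change in the DNMT1-AID line beyond the change in the WT line over the same days. DNMT1-AID denotes cells in which DNMT1 carries an auxin-inducible degron (AID) tag, and WT denotes the parental cells without that tag. Both lines carry a doxycycline-inducible OsTIR1, the plant F-box protein that hands tagged proteins to the proteasome when auxin is present, and both lines were kept up to collection with auxin at 500 μM and doxycycline at 2 μg/mL, so that drug exposure and OsTIR1 are common to all libraries compared here. The members were chosen by line and day from the sample labels and comprise 12 of the 36 RNA-seq libraries of the series, 3 in each of WT day 2, WT day 8, DNMT1-AID day 2 and DNMT1-AID day 8. The remaining libraries are those of day 6 and of the UHRF1-AID and UHRF1/DNMT1-AID lines. They entered the fit, and so bear on which genes were tested and on the estimate of spread. Their levels are given only where named. The labels do not say which clone each library came from, and no library from before degradation was analysed here, so that a difference between the lines that existed before auxin cannot be told apart from an effect of degradation at any single day; the change from day 2 to day 8 within each line removes a difference that is constant over time. The study describes the 3 libraries of a group as biological replicates without saying how their cultures were separated, and p-values measure the spread between these libraries.

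DNMT1 is the maintenance DNA methyltransferase. It copies the methylation of CpG dinucleotides from the parental to the newly made strand after replication, and the E3 ligase UHRF1 recruits it to hemimethylated sites. In its absence methylation is diluted with each cell division, and loss of methylation is known to go with expression of germline genes and endogenous retroelements, whose RNA can be sensed as foreign and start an interferon response.

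The 12 libraries held between 21388894 and 37175136 counted reads. The defining markers of colorectal epithelium (EPCAM, CDH1, KRT8, KRT18, KRT19, CDX2, VIL1 and CLDN4) were detected in all 12 libraries. Of 15 markers of blood, endothelial, stromal and liver cells, the endothelial CDH5 and the hepatic ALB were at 0 in all 12 libraries, and the summed level of the 15 was 7.58 to 8.91 CPM (reads scaled to the total of the library) in the WT day 2 libraries and 7.85 to 8.79 in DNMT1-AID day 2, against 22.0 to 26.3 and 24.5 to 26.6 on day 8. Among the 12 libraries, those of DNMT1-AID day 8 stood apart in 2 respects. Mitochondrially encoded genes took 4.79% to 7.93% of their reads against 2.87% to 3.73% on day 8 in WT. This share was 4.68% to 7.41% in UHRF1-AID day 8 and 7.72% to 10.8% in UHRF1/DNMT1-AID day 8. Pairs of DNMT1-AID day 8 libraries differed by 22.4 to 29.9 in chi-square per degree of freedom. The values were 10.1 to 15.7 between DNMT1-AID day 2 libraries and at most 11.3 between WT libraries. Correlations of log2 CPM between DNMT1-AID libraries were 0.988 to 0.9889 on day 2 and 0.9871 to 0.9877 on day 8. The degron acts on the protein, so the DNMT1 transcript does not measure depletion. DNMT1 mRNA was 60.5, 48.0 and 47.8 CPM in the WT day 2 libraries and 17.0, 14.9 and 16.0 in DNMT1-AID day 2. On day 8 it was 191, 210.1 and 195 CPM in WT and 70.1, 59.1 and 62.8 in DNMT1-AID. The tagged line was thus below WT on both days without overlap, and DNMT1 rose in both lines by about the same factor (change beyond WT of 0.07 ± 0.30 on the log2 scale, adjusted p = 0.932). For UHRF1 the change beyond WT was -0.04 ± 0.36 (adjusted p = 0.982).

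Of 15415 protein-coding genes tested, 1086 rose more or fell less in DNMT1-AID than in WT between day 2 and day 8, which is 7.05% of the genes tested, and 1431 fell more or rose less, which is 9.28% (edgeR quasi-likelihood test, adjusted p below 0.05). With library sizes alone as the scaling, these counts were 807 and 1812. A change beyond WT of more than 2-fold was reached by 248 genes that were higher, 1.61% of those tested, and by 76 that were lower, 0.493%. Among the 248 genes, 143 rose in DNMT1-AID and did not pass the test in WT, 65 rose in both lines, 18 rose in DNMT1-AID while falling in WT, and 21 fell in WT and did not pass in DNMT1-AID. Among the 76 genes, 37 fell in DNMT1-AID and did not pass the test in WT, 17 fell in both lines, 8 fell in DNMT1-AID while rising in WT, and 14 rose in WT and did not pass in DNMT1-AID. For comparison, 35.2% of all tested genes rose and 33.8% fell in DNMT1-AID, and 30.1% rose and 29.7% fell in WT. The median change of the 248 genes was 2.02 in DNMT1-AID and -0.00 in WT on the log2 scale, and that of the 76 genes was -1.39 and -0.13. Of the 248 genes, 37 had a group with 3 or fewer reads in all, where the size of the fold depends on the model; without them the median change beyond WT was 1.75 in place of 1.93. A threshold set on the size of the change itself, a test against 1.5-fold, left 32 higher and 6 lower genes.

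**Figure D1:**
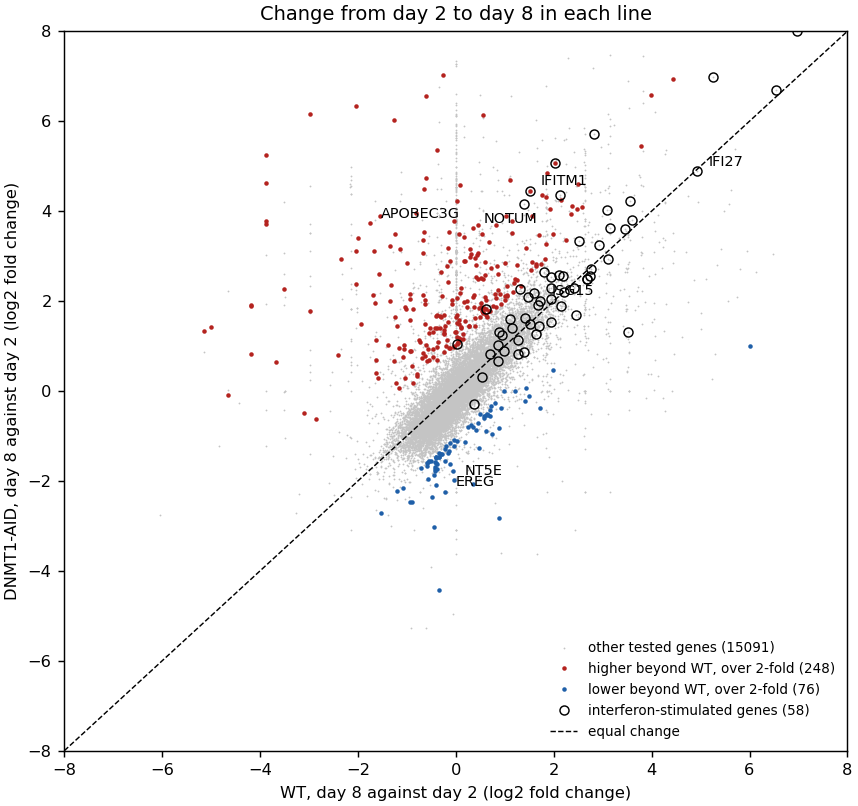
Log2 fold change from day 2 to day 8 in WT (horizontal) and in DNMT1-AID (vertical) for each tested protein-coding gene. Red points are the 248 genes higher beyond WT by over 2-fold, blue points the 76 lower, open circles the 58 interferon-stimulated genes, and the dashed line marks equal change; 4 genes lie outside the axes. Most open circles lie near the dashed line, at positive changes in both lines.

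Most interferon-stimulated genes (ISGs) rose in both lines. Of 58 ISGs tested, 55 rose from day 2 to day 8 in DNMT1-AID and 53 in WT, against 35.2% and 30.1% of all genes. Their median changes were 2.24 and 1.94 on the log2 scale. Beyond WT, 9 were higher (15.5%, against 7.05% of all genes) and 1 was lower, and 14 and 3 with the replicate number as a block within each line, 17 and 5 with only the 12 libraries in the fit and 14 and 2 with DESeq2. With correction for GC content and length, 6 were higher and 1 was lower, and with a test against 1.5-fold, 1 and 0. Leaving out 1 library gave as few as 6 higher. The change beyond WT of the 58 had a median of 0.23 against 0.00 over all genes tested. On day 2 already, 10 of the 58 were higher in DNMT1-AID than in WT, against 2.67% of all genes higher and 0.714% lower, and 39 were higher on day 8, against 25.1% of all genes higher and 22.4% lower. IFI27, a classical interferon-induced mitochondrial protein, was 4.53, 5.66 and 6.91 CPM in WT day 2 and 82.2, 37.1 and 90.9 in DNMT1-AID day 2. On day 8 it was 184, 161 and 177 CPM in WT and 1761, 2131 and 2332 in DNMT1-AID. The lines did not overlap on either day, yet each rose by a similar factor, so the change beyond WT was -0.05 ± 0.45 (adjusted p = 0.986). ISG15, the ubiquitin-like modifier, was 347 ± 57.2 CPM (SD, n = 3) in WT day 2, 1148 ± 25.3 in WT day 8, 716 ± 110.5 in DNMT1-AID day 2 and 2879 ± 315 in DNMT1-AID day 8, with a change beyond WT of 0.28 ± 0.32 (adjusted p = 0.609). IRF7, the transcription factor that amplifies type I interferon, and OAS1, which makes the second messenger of RNase L, had changes beyond WT of 0.37 ± 0.20 and 0.20 ± 0.49 (adjusted p = 0.236 and 0.848).

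IFITM1, a membrane protein that blocks entry of enveloped viruses, was the ISG with the smallest adjusted p for the change beyond WT. It was 49.2, 59.0 and 59.1 CPM in WT day 2 and 116, 84.3 and 90.6 in DNMT1-AID day 2. On day 8 it was 149.5, 162 and 165 CPM in WT and 2243, 1892 and 2219 in DNMT1-AID. Every DNMT1-AID day 8 library thus stood far above all others, and the change beyond WT was 2.94 ± 0.28 (adjusted p = 2.91e-07). An annotated locus without a name (ENSG00000288681), at chr11:308408-315272 in hg38, gave 2.64 ± 0.22 (adjusted p = 8.74e-09); it shares 351 exon bases with IFITM1 on the same strand, so that the reads of these 2 genes cannot be assigned with certainty. Its neighbours IFITM2 and IFITM3 were higher by 1.22 ± 0.19 and 0.62 ± 0.16. The other ISGs that were higher beyond WT were GBP1, BST2, ISG20, PARP10, LGALS3BP and IRF1 (listed here to complete the count), and the one that was lower was TRIM25, the ubiquitin ligase of RIG-I, at -0.67 ± 0.13 (adjusted p = 0.000689).

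Genes of antigen presentation formed the list with the highest share of members higher beyond WT among those that had at least 20 members tested. Of 22 tested, 12 were higher (54.5%, against 7.05% of all genes) and none was lower beyond WT, with a median of 0.67. They included the class I heavy chains HLA-B, HLA-C, HLA-E and HLA-F, the class II genes HLA-DRB1 and HLA-DPA1 with the invariant chain CD74, the peptide transporter TAP1, the peptide editor TAPBPL, and the immunoproteasome subunits PSMB8 and PSMB10. PSMB8 was 1.61, 1.89 and 1.73 CPM in WT day 2, 3.56, 3.05 and 3.84 in DNMT1-AID day 2, 2.79, 2.79 and 3.61 in WT day 8 and 39.3, 54.3 and 42.1 in DNMT1-AID day 8. DNMT1-AID day 8 stood far above the other groups, and the change beyond WT was 2.87 ± 0.45 (adjusted p = 0.000108). PSMB10 changed by 1.05 ± 0.16 (adjusted p = 4.12e-05), but it shares 640 exon bases with another annotated coding gene on its strand. HLA genes are near-identical to each other in parts, and how reads were divided between them is not stated in the sources used here. With values corrected for GC content and length, 9 of the 22 remained past the threshold.

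The promoters of 3 of these genes are shown because they hold the interferon-stimulated response element in different settings: IFITM1 and PSMB10, which were higher beyond WT, and ISG15, for which no difference was shown. Each is the 250 bases before the RefSeq start (GRCh38.p14), 5′ to 3′ on the strand of the gene, and capitals mark matches on either strand to GAAA, 2 bases of any kind and GAAA. IFITM1 lies at chr11:313790-314039 (plus strand), PSMB10 at chr16:67936851-67937100 (minus strand) and ISG15 at chr1:1013247-1013496 (plus strand).
IFITM1: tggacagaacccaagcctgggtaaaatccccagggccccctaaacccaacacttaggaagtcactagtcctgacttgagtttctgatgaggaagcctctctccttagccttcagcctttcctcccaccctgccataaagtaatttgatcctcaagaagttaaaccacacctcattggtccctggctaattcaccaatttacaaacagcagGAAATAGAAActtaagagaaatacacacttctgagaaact
PSMB10: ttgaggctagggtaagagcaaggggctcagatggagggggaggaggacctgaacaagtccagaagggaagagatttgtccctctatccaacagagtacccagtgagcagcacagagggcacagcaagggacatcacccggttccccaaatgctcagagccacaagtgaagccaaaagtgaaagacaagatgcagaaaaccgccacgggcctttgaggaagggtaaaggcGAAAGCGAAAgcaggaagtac
ISG15: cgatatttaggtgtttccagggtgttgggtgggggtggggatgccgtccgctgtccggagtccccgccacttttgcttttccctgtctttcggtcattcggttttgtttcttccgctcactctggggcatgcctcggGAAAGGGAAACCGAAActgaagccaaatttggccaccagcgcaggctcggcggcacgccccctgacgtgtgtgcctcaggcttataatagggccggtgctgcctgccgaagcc
The IFITM1 stretch holds 1 match and 0 CpG dinucleotides, that of PSMB10 1 match and 5 CpG, and that of ISG15 2 overlapping matches and 17 CpG. Within 300 bases around the start (250 before and 50 after, from the annotated canonical transcript), the motif was present in 2.89% of all tested genes. It was present in 52.4% of the 21 ISGs or antigen presentation genes that were higher beyond WT and in 61% of the 59 that were not. These shares are a description, with no test.

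Among other antiviral factors, 3 of the 7 APOBEC3 cytidine deaminases tested, enzymes that mutate viral and retroelement DNA, were higher beyond WT (42.9%, against 7.05% of all genes) and none was lower. APOBEC3G was 0.624, 0.277 and 0.216 CPM in WT day 2 and 0.0458, 0.045 and 0.202 in WT day 8, the latter resting on 8 reads in all. In DNMT1-AID it was 1.67, 1.17 and 0.959 CPM on day 2 and 17.2, 19.3 and 14.3 on day 8. The change beyond WT was 5.49 ± 0.84 (adjusted p = 6.30e-05), the size of which depends on the few WT reads. APOBEC3D and APOBEC3C followed at 2.58 ± 0.55 and 0.65 ± 0.19. They share 2104 and 17 exon bases with another annotated coding gene on their strand, so the value of APOBEC3D in particular is uncertain. Of 19 genes of cytosolic nucleic acid sensing, 4 were higher and 1 was lower (21.1% and 5.26%, against 7.05% and 9.28% of all genes). Among the higher, DHX58, which encodes the RIG-I-like receptor LGP2, was 1.31 ± 0.131 CPM in WT day 2 and 6.21 ± 0.71 in WT day 8, and 4.35 ± 1.06 and 45.0 ± 2.47 in DNMT1-AID, a change beyond WT of 1.12 ± 0.31 (adjusted p = 0.011). The transcription factor IRF3, the exonuclease TREX1 and the nucleotide hydrolase SAMHD1 were also higher, and ADAR, which edits double-stranded RNA, was lower at -0.43 ± 0.14 (adjusted p = 0.036). With correction for GC content and length, 2 of these genes were higher and 0 lower, the calls of IRF3 and ADAR being among those lost, and that of ADAR was also lost without any 1 of 7 libraries. Of 15 genes for interferons, their receptors and signalling, none was higher and IFNAR1 was lower, a call lost with correction for GC content and length; the interferon lambda gene IFNL1 was at or below 1.58 CPM in every one of the 12 libraries (adjusted p = 0.718 for its change beyond WT).

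**Figure D2:**
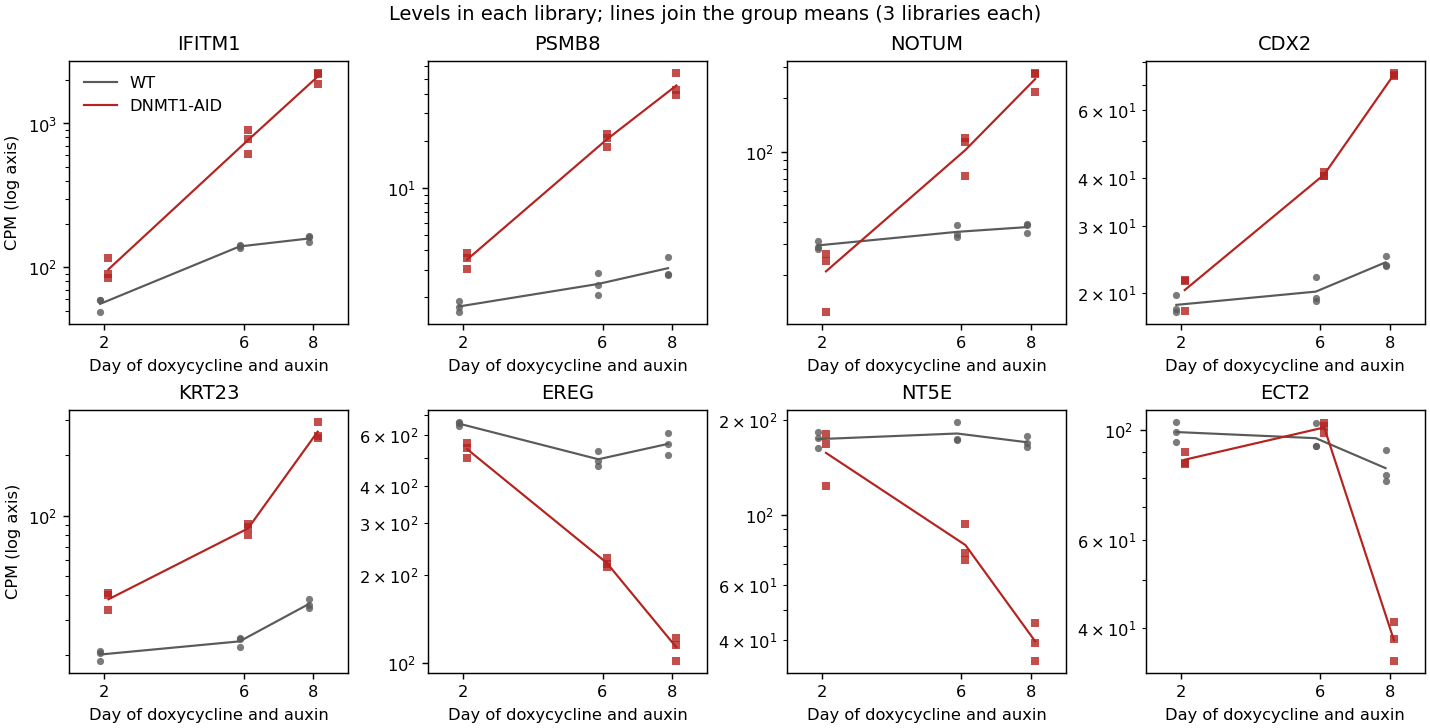
Level in CPM (log axis) of 8 genes in each WT (grey circles) and DNMT1-AID (red squares) library on days 2, 6 and 8, with lines joining the means of 3 libraries. IFITM1, PSMB8, NOTUM, CDX2 and KRT23 climbed in DNMT1-AID, EREG and NT5E declined, and ECT2 was level with WT on day 6 and below it on day 8.

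A part of the genes of the intestinal epithelium and of the keratins was higher beyond WT. CDX2, the homeobox factor that specifies intestinal epithelium, was 19.8, 17.9 and 18.2 CPM in WT day 2, 18.0, 21.6 and 21.6 in DNMT1-AID day 2, 23.7, 25 and 23.6 in WT day 8 and 75.1, 73.8 and 74.3 in DNMT1-AID day 8. The lines overlapped on day 2 and stood well apart on day 8, with a change beyond WT of 1.5 ± 0.21 (adjusted p = 3e-05). Of 21 intestinal epithelial genes tested, 6 were higher (28.6%, against 7.05% of all genes) and none was lower: CDX2, the tight junction protein CLDN3 at 1.16 ± 0.15, the adhesion molecule CEACAM1 at 1.73 ± 0.56, and the keratins KRT8, KRT18 and KRT20. With the replicate number as a block within each line, 6 intestinal epithelial genes were higher and 1 was lower. Of 31 keratins, 7 were higher (22.6%) and none was lower. KRT23 was 20.2 ± 1.23 CPM in WT day 2 and 36.2 ± 1.86 in WT day 8, against 38.2 ± 3.95 and 262 ± 26.5 in DNMT1-AID, a change beyond WT of 1.94 ± 0.25 (adjusted p = 1.39e-05). KRT23 was already higher in DNMT1-AID on day 2 (0.92 on the log2 scale, adjusted p = 0.00407). KRT18, the partner of KRT8 in simple epithelia, was 847 ± 30.1 and 807 ± 5.18 CPM in WT and 1008 ± 49.5 and 1885 ± 232 in DNMT1-AID, a change beyond WT of 0.97 ± 0.15 (adjusted p = 5.85e-05).

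The largest change beyond WT among genes called with a mean of at least 5 CPM was that of NOTUM, a secreted enzyme that inactivates Wnt proteins by removing their lipid. NOTUM was 28.9, 28.1 and 31.4 CPM in WT day 2, 26.5, 12.4 and 24.1 in DNMT1-AID day 2, 38.3, 34.8 and 39.1 in WT day 8 and 276, 218 and 278 in DNMT1-AID day 8. The DNMT1-AID libraries lay below WT on day 2 (adjusted p = 0.38) and several-fold above it on day 8, with a change beyond WT that passed the test (3.27 ± 0.40, adjusted p = 1.14e-05). Of 22 Wnt pathway and feedback genes, NOTUM, the pseudoreceptor BAMBI (1.89 ± 0.50) and the transcription factor SP5 (1.55 ± 0.48) were higher, and CTNNB1, which encodes β-catenin, was lower (-0.50 ± 0.12). The shares were 13.6% and 4.55%, against 7.05% and 9.28% of all genes. The call of SP5 was lost with correction for GC content and length (adjusted p = 0.135) and when some single libraries were left out. The other genes with the largest rises were SUSD2, a cell surface protein (2.98 ± 0.63), SMIM22, a small membrane protein (2.92 ± 0.73), SLC15A3, a lysosomal peptide transporter (2.86 ± 0.33), AQP3, a water and glycerol channel (2.80 ± 0.62), KLK5, a secreted serine protease (2.72 ± 0.47), FERMT3, an activator of integrins in blood cells (2.70 ± 0.32), APOL1, a secreted apolipoprotein (2.61 ± 0.82), and ENSG00000244255, whose exons are shared with the complement genes C2 and CFB (2.33 ± 0.73). AQP3 varied between libraries, with 66.8, 192 and 76.5 CPM in DNMT1-AID day 8 against 15.9, 36.4 and 24.1 on day 2 and 5.04, 6.30 and 6.41 in WT day 8. FERMT3 fell in WT, from 3.11 ± 0.326 to 1.69 ± 0.222 CPM, while it rose in DNMT1-AID from 3.64 ± 0.694 to 12.9 ± 1.42. Several genes named here, among them IFITM1, PSMB8, SMIM22, NOTUM, KRT23 and KLK5, overlap long non-coding genes on the opposite strand. PSMB8 shares 602 exon bases with such a gene and 139 with the coding gene PSMB9, also on the opposite strand. Whether reads were counted by strand is not stated in the sources used here.

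EREG, the growth factor epiregulin and a ligand of the EGF receptor, had the lowest change beyond WT among genes called with a mean of at least 5 CPM. It was 644, 662 and 657 CPM in WT day 2, 501, 564 and 540.5 in DNMT1-AID day 2, 608, 556 and 511 in WT day 8 and 122, 116 and 102 in DNMT1-AID day 8. The DNMT1-AID day 8 libraries lay far below all others, with a change beyond WT of -2.01 ± 0.18 (adjusted p = 9.52e-09). Of 21 EGF receptor ligands and MAP kinase output genes, 3 were lower (14.3%, against 9.28% of all genes) and none was higher, or 8 and 1 with the replicate number as a block within each line. Amphiregulin, AREG, another such ligand, fell from 275 ± 24.9 to 118 ± 21 CPM in DNMT1-AID and was 285 ± 13.2 and 232 ± 15.1 in WT (-0.92 ± 0.21, adjusted p = 0.00243). The MAP kinase inhibitor SPRED1 was lower at -0.37 ± 0.13, a call that was lost without any 1 of 9 of the 12 libraries and, with a value of 0.01, when GC content and length were corrected for. EGR3, an immediate early transcription factor, was lower as well (-1.32 ± 0.38). NT5E, which encodes the ectonucleotidase CD73 that makes extracellular adenosine, was 175, 164 and 183 CPM in WT day 2, 168, 181 and 124 in DNMT1-AID day 2, 164, 178 and 169 in WT day 8 and 45.5, 34.4 and 39.2 in DNMT1-AID day 8. It was level in WT and fell in DNMT1-AID (-1.95 ± 0.36, adjusted p = 0.000812). The ceramidase ACER2 (-1.86 ± 0.29), the neuropeptide precursor VGF (-1.76 ± 0.40), the serotonin receptor HTR7 (-1.58 ± 0.36), the lipid synthesis enzyme GPAT3 (-1.37 ± 0.29) and LRIG3 (-1.34 ± 0.30) were also among the 12 lowest. A different course was that of MDGA1 and UNC13A, which rose in WT and did not pass the test in DNMT1-AID. MDGA1 was 7.31 ± 1.14 and 19.6 ± 1.59 CPM in WT against 5.48 ± 2.86 and 4.67 ± 1.49 in DNMT1-AID. UNC13A, a synaptic vesicle priming factor, was 10.5 ± 1.38 and 28.4 ± 3.43 against 6.78 ± 0.901 and 7.08 ± 1.09. The readthrough genes ARHGAP19-SLIT1 and ZFP91-CNTF met the same criteria at -1.38 ± 0.25 and -1.35 ± 0.20, but they share exons with ARHGAP19 and SLIT1 and with ZFP91 and CNTF, and their values are uncertain.

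Since DNMT1 acts on CpG dinucleotides, their number near the start of these genes is given as a description. In the same window of 300 bases, the 248 genes higher beyond WT by over 2-fold held a median of 11 CpG, with quartiles of 5 and 24.25, against 26 for all tested genes, with quartiles of 17 and 35. The 76 genes lower by over 2-fold held a median of 22, with quartiles of 9.75 and 31. Of all 1086 and 1431 genes past the threshold the medians were 27 and 29. Of the 248 genes, 69 had a mean below 1 CPM over the 12 libraries, and whether low level bears on the count of CpG was not tested. The stretches before the starts of KLK5, one of the highest, and of EREG and NT5E, the 2 lowest, illustrate the range. They are the 250 bases before the RefSeq start (GRCh38.p14), on the strand of the gene, with CpG in capitals. KLK5 lies at chr19:50953039-50953288 (minus strand), EREG at chr4:74364895-74365144 (plus strand) and NT5E at chr6:85449833-85450082 (plus strand).
KLK5: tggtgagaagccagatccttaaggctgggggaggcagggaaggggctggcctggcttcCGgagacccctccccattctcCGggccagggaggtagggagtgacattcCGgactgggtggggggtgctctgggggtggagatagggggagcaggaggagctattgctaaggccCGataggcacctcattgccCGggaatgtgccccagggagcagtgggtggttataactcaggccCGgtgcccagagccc
EREG: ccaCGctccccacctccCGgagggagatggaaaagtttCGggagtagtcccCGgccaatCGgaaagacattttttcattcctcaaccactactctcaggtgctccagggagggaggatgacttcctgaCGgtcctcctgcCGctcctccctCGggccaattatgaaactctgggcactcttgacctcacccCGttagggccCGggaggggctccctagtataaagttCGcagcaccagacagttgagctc
NT5E: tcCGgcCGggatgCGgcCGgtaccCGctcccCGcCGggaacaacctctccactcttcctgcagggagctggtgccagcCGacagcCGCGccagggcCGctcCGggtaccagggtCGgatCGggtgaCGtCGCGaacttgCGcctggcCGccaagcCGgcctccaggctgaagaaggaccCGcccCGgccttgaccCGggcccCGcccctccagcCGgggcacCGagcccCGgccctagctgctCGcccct
The KLK5 stretch holds 6 CpG, that of EREG 11 and that of NT5E 28. No methylation was measured in these libraries.

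Genes of mitosis and of DNA replication had the highest shares of members lower beyond WT among the lists with at least 20 members tested. Of 46 mitosis genes, 26 were lower (56.5%, against 9.28% of all genes) and none was higher, with a median of -0.52. Of 50 DNA replication genes and E2F targets, 19 were lower (38.0%) and none was higher, with a median of -0.37. Between the days, 14 of the 46 mitosis genes rose and 20 fell in DNMT1-AID (median -0.17). In WT 26 of them rose and 12 fell (median 0.32). Of the 50 replication genes, 12 rose and 29 fell in DNMT1-AID (median -0.39), and 21 and 18 in WT (median -0.06). Of all genes, 35.2% rose and 33.8% fell in DNMT1-AID, and 30.1% and 29.7% in WT. The RhoA activator of cytokinesis ECT2 was 98.8, 104 and 94.3 CPM in WT day 2, 90.1, 85.2 and 85.8 in DNMT1-AID day 2, 91.0, 81.2 and 79.0 in WT day 8 and 41.1, 38.1 and 34.5 in DNMT1-AID day 8 (-0.96 ± 0.13, adjusted p = 9.15e-06). The lines lay close on day 2 and were well separated on day 8. The spindle checkpoint kinase BUB1 went from 71.6 ± 4.80 to 41.3 ± 1.06 CPM in DNMT1-AID and from 79.7 ± 4.52 to 84.1 ± 2.05 in WT (-0.87 ± 0.14, adjusted p = 8.69e-05). Cyclin A2, CCNA2, went from 116 ± 5.16 to 52.6 ± 2.23 CPM and from 141 ± 5.79 to 112 ± 7.58 (-0.80 ± 0.13, adjusted p = 9.15e-05). RRM2, the regulated subunit of ribonucleotide reductase, went from 489 ± 49.5 to 233 ± 9.14 CPM and from 559 ± 28.5 to 437 ± 4.19 (-0.72 ± 0.15, adjusted p = 0.00138). On day 6, none of the 46 mitosis genes was lower and 7 were higher in DNMT1-AID than in WT, where 8.84% of all genes were higher and 4.35% lower. On day 8, all 46 were lower, against 22.4% of all genes. Of the 50 replication genes, 10 were lower on day 2, 3 on day 6 and 44 on day 8, against 0.714%, 4.35% and 22.4% of all genes. BUB1 was 107 ± 8.17 CPM in DNMT1-AID and 90.8 ± 6.19 in WT on day 6. In bulk RNA, fewer cells in these phases and less of this RNA in each cell cannot be told apart. With correction for GC content and length, 14 of the 46 and 13 of the 50 remained past the threshold.

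Of 16 cell cycle inhibitors and senescence markers, CDKN1C and CDKN2A were higher and RB1 was lower (12.5% and 6.25%). CDKN2A, which encodes p16, was 118 ± 3.40 and 87.5 ± 5.85 CPM in WT and 123 ± 8.26 and 128 ± 7.74 in DNMT1-AID, so that the difference of 0.48 ± 0.16 (adjusted p = 0.0338) came with a fall in WT. For CDKN1A, which encodes p21, the change beyond WT was -0.11 ± 0.18 (adjusted p = 0.733). Of 31 p53 targets, 3 were higher and 5 were lower (9.68% and 16.1%, against 7.05% and 9.28% of all genes). Among them were the proapoptotic BBC3 (0.83 ± 0.23) and MDM2, the ligase of p53 (-0.38 ± 0.12). With the block within each line, 6 p53 targets were higher and 6 lower. On day 6, 19 of the 31 were higher in DNMT1-AID than in WT, against 8.84% of all genes, and on day 8, 12 were, against 25.1%. With correction for GC content and length, 0 inhibitors or markers were higher and 1 was lower, and 1 p53 target was higher and 0 were lower. The calls of CDKN1C, CDKN2A, RB1, BBC3 and MDM2 were all lost there, so the calls that remained were of other genes. The calls of CDKN2A, RB1 and MDM2 were also lost when some single libraries were left out. With library sizes alone as the scaling, 1 inhibitor or marker was higher and 2 were lower.

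Of 47 genes of the senescence-associated secretory phenotype, 6 were higher and 2 were lower beyond WT, the 2 being EREG and AREG. The shares were 12.8% and 4.26%, against 7.05% and 9.28% of all genes. The number higher was 13 with the replicate number as a block within each line, 10 with only the 12 libraries in the fit, 11 with DESeq2 and 2 with correction for GC content and length. TNFRSF1B, a TNF receptor, was 0.412 ± 0.0222 and 0.657 ± 0.265 CPM in WT and 1.68 ± 0.496 and 16.8 ± 2.81 in DNMT1-AID (2.64 ± 0.59, adjusted p = 0.00231). Complement C3 was 0.66 ± 0.15 and 0.726 ± 0.273 CPM in WT and 1.65 ± 0.376 and 6.44 ± 0.874 in DNMT1-AID (1.82 ± 0.44, adjusted p = 0.00396). The cytokine IL32 was higher at 2.58 ± 0.90 (adjusted p = 0.045), a call that was lost without any 1 of 9 of the 12 libraries, and the protease inhibitor TIMP1 at 0.55 ± 0.13. Both calls were lost with correction for GC content and length (adjusted p = 0.103 for IL32 and 0.259 for TIMP1). The chemokine CCL5 was 0 in 2 of 3 DNMT1-AID day 2 libraries and 2.20 ± 0.775 CPM on day 8 (adjusted p = 0.0562 with edgeR and 0.0184 with DESeq2). MMP1, MMP13 and IGFBP3, all below 5 CPM, did not pass the threshold with edgeR (adjusted p = 0.241, 0.111 and 0.128) and passed it with DESeq2 (adjusted p = 0.0262, 0.0278 and 0.00341), and ICAM1 passed with neither (adjusted p = 0.62 and 0.524). Of 18 NF-κB subunits and targets, NFKB2 was higher (5.56%), and NFKB1 and BIRC3 were lower (11.1%). The calls of NFKB2 and BIRC3 were lost with correction for GC content and length, and that of BIRC3 without any 1 of 11 of the 12 libraries.

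Of 33 lysosomal genes, 8 were higher (24.2%, against 7.05% of all genes) and 1, the proton pump subunit ATP6V1A, was lower, or 4 and 2 with correction for GC content and length. Cathepsin B, CTSB, was 1288 ± 50.1 and 968 ± 30.9 CPM in WT and 1369 ± 79.2 and 1987 ± 173 in DNMT1-AID (0.95 ± 0.12, adjusted p = 3.21e-06), and CTSD and CTSA followed at 0.56 ± 0.10 and 0.58 ± 0.12, calls that were lost with correction for GC content and length. CTSD also shares 1304 exon bases with another annotated coding gene on its strand. Of 27 genes of cholesterol and fatty acid synthesis, 7 were lower (25.9%, against 9.28% of all genes) and none was higher, and 11 were lower with the block within each line. HMGCS1, an enzyme of the mevalonate pathway, was lower at -0.52 ± 0.13 (adjusted p = 0.00443), a call lost with correction for GC content and length (-0.20, adjusted p = 0.383), and CYP51A1, of sterol synthesis, was lower at -0.54 ± 0.11, although it shares exons with other annotated coding genes. Of 13 mitochondrially encoded genes, MT-ND3 and MT-ND6 were higher (15.4%, against 7.05% of all genes) and none was lower. MT-ND6 was 976, 1237 and 1896 CPM in DNMT1-AID day 8 against 542, 559 and 651 in WT day 8. Its call was lost with correction for GC content and length (adjusted p = 0.0693). Both calls were lost when some single libraries were left out, which gave as few as 0 of the 13 higher. The DNMT1-AID day 8 libraries are those in which mitochondrial reads took a larger share than in WT, and the part of these reads in the other results was not tested.

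Germline genes are a class silenced by methylation in somatic cells. Of 48 tested, MAGEA12 alone was higher beyond WT (2.08%, against 7.05% of all genes), with a change of 3.43 ± 0.77 (adjusted p = 0.00226). MAGEA12 was 0.377 ± 0.186 and 0.0945 ± 0.0465 CPM in WT and 2.18 ± 0.508 and 6.2 ± 2.39 in DNMT1-AID. The median change beyond WT of the 48 was 1.59, at levels where few reads stand in WT. The filter on low counts used all 12 groups, so a gene could be tested for its level in another line. With only the 12 libraries in the fit, 27 germline genes were tested and their median was 0.48. On day 2, 6 of the 48 were higher in DNMT1-AID than in WT, on day 6, 23, and on day 8, 29. Of all genes, 2.67%, 8.84% and 25.1% were higher on these days. Of 37 mesenchymal and matrix genes, 8 were higher and 2 lower (21.6% and 5.41%), or 3 and 2 with correction for GC content and length. Of 31 collagens, 5 were higher and 4 lower (16.1% and 12.9%), or 1 and 1 with that correction, with COL9A3 at 1.41 ± 0.27. Over all genes tested, 7.05% were higher and 9.28% lower. Of 36 genes of the DNA methylation and heterochromatin machinery, 7 were lower (19.4%), including UHRF2, TDG, EZH2 and SUZ12, and MBD2 was higher (2.78%). With that correction 2 were lower, the calls of TDG and SUZ12 being lost, and the call of MBD2 was lost without any 1 of 9 libraries. Of 49 clustered protocadherins, none passed the threshold in the fit of all 36 libraries with edgeR, with a median of 0.79 and with 21 higher and 1 lower at an unadjusted p below 0.05. The number higher was 21 with only the 12 libraries in the fit, 21 with the block within each line and 20 with DESeq2. Between the days, 35 of the 49 rose in DNMT1-AID and 37 in WT, against 35.2% and 30.1% of all genes. The median difference of DNMT1-AID from WT was -0.47 on day 2 and 0.27 on day 8 (log2). On day 8, 0 of the 49 were higher than in WT and 16 were lower, against 25.1% and 22.4% of all genes.

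For comparison with the lists that follow, 7.05% of all genes tested were higher and 9.28% lower beyond WT. Of 84 cytosolic ribosomal proteins, 79 fell in DNMT1-AID and 80 in WT between the days, against 33.8% and 29.7% of all genes. Beyond WT 2 were higher and 1 was lower (2.38% and 1.19%). The counts were 4 and 2 with the block within each line, and 1 and 9 with correction for GC content and length. Of 395 numbered zinc finger genes, many of which encode repressors of transposable elements, 11 were higher and 20 lower (2.78% and 5.06%). Of 39 genes of MYC and ribosome biogenesis, 3 were higher and 6 lower, or 0 and 2 with that correction, of 22 imprinted genes 4 (18.2%) and 2, or 0 and 0, of 27 genes of the integrated stress response 2 and 2, and of 33 genes hypermethylated in colorectal cancer 3 and 1. Of 37 HOX genes, 2 were higher and 1 lower, or 2 and 3 with that correction. Among 27 genes of glycolysis and the hypoxia response, 3 were lower and none was higher, and among 34 replication-dependent histones, whose transcripts mostly lack a poly-A tail, 2 were higher and none was lower. With the block within each line, the genes of MYC and ribosome biogenesis higher and lower were 6 and 8, those of the integrated stress response 5 and 3, the hypermethylated genes 5 and 2, the HOX genes 4 and 3, the zinc finger genes 15 and 31, the imprinted genes 5 and 3, the glycolysis genes 1 and 4, the histones 4 and 0, the mesenchymal genes 10 and 4, the germline genes 2 and 0, the lysosomal genes 10 and 2, the Wnt genes 3 and 2, the interferon ligands and receptors 1 and 2 and the cell cycle inhibitors 3 and 2.

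**Figure D3:**
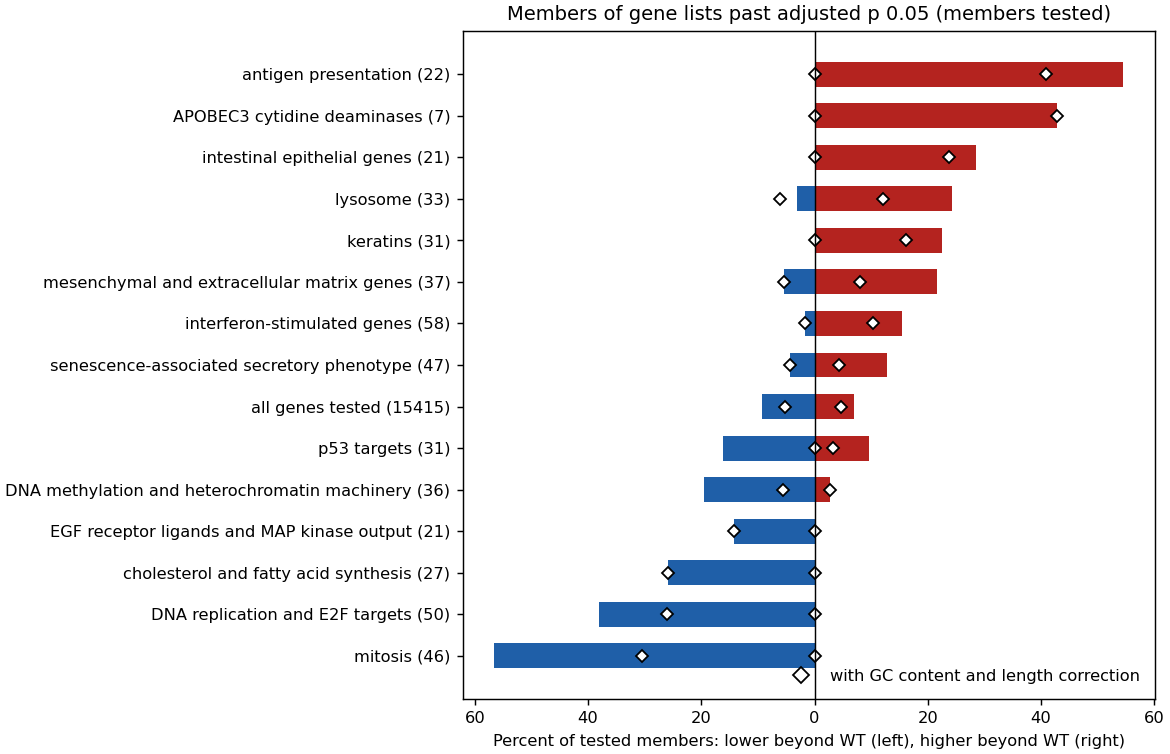
Percent of the tested members of 14 gene lists and of all genes (number tested in brackets) that were higher (right, red) or lower (left, blue) beyond WT at an adjusted p below 0.05, with white diamonds for the fit corrected for GC content and length. Mitosis reaches furthest to the left (26 of 46) and antigen presentation furthest to the right (12 of 22).

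The calls varied with the composition of the transcript. In the fifth of genes with the lowest GC content, 0.778% were higher and 22.6% were lower beyond WT, and in the fifth with the highest, 17.2% were higher and 0.618% were lower. In the fifth of shortest genes 14.3% were higher and 2.66% were lower, and in the fifth of longest genes 1.85% and 17.6%. The median GC content was 59.1% for the 1086 higher genes, 41.5% for the 1431 lower genes and 50.02% for all tested, and chromosome 19 held 16.6%, 0.908% and 7.62% of them. Weighted by reads, the mean GC content of the libraries was 49.6% to 49.8% in WT day 2 and 49.5% to 49.7% in DNMT1-AID day 2, against 50.8% to 51.1% and 51.7% to 51.9% on day 8. GC content thus moved with the day in both lines and further in DNMT1-AID. With an offset for GC content and length in each library, 708 genes were higher and 796 lower beyond WT, and 163 and 60 by over 2-fold. Of the 24 leading genes, 22 kept an adjusted p below 0.05 in that fit, and APOL1 and ENSG00000244255 did not (adjusted p = 0.0599 and 0.0517). NOTUM, IFITM1, PSMB8, CDX2, KRT23, EREG and NT5E gave 2.92, 2.70, 2.62, 1.33, 1.89, -1.68 and -1.76 there.

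**Figure D4:**
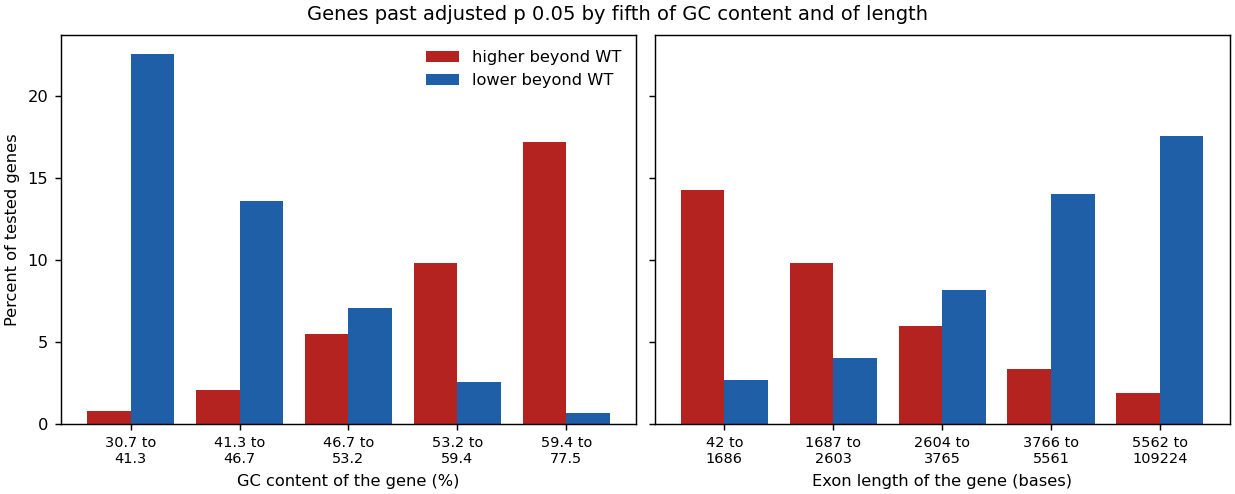
Percent of tested protein-coding genes that were higher (red) or lower (blue) beyond WT at an adjusted p below 0.05, in groups of equal size by GC content (left) and exon length (right). Higher genes rise from 0.778% to 17.2% with GC content and fall from 14.3% to 1.85% with length, and lower genes run the other way.

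Day 6, whose libraries entered the fit but not the contrast of days 2 and 8, lay in between. For the 248 higher genes, the median difference between DNMT1-AID and WT moved from 0.13 (day 2) through 1.11 (day 6) to 2.06 (day 8) on the log2 scale, and 29, 153 and 233 of them were higher than WT on these days. For the 76 lower genes the medians were -0.07, -0.28 and -1.28, and 0, 20 and 74 were lower. IFITM1 was 766 ± 143 CPM in DNMT1-AID and 139.7 ± 3.0 in WT on day 6, KRT23 86.2 ± 5.32 and 23.5 ± 1.19, and EREG 219.8 ± 7.63 and 495 ± 31.5. The growth factor EREG was thus already lower on day 6 (-1.17 ± 0.13, adjusted p = 3.20e-08), whereas no difference was shown for ECT2 then (0.07, adjusted p = 0.666).

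**Figure D5:**
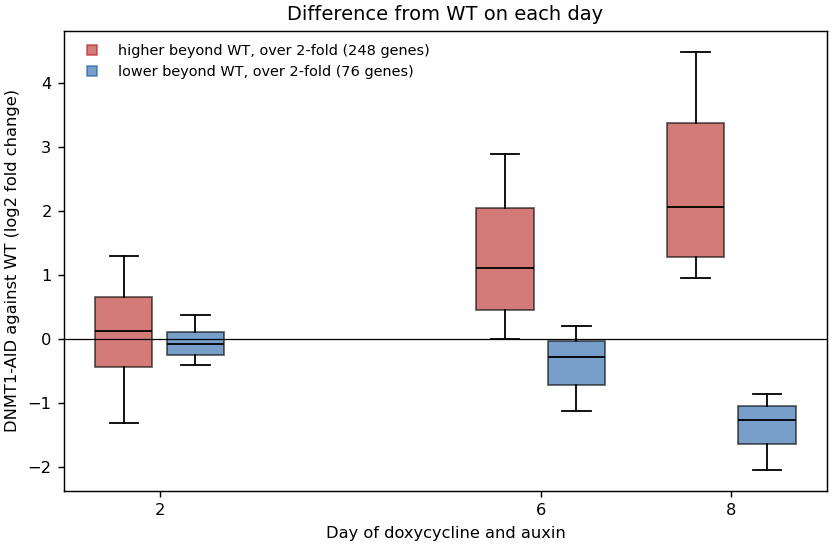
Log2 difference between DNMT1-AID and WT on days 2, 6 and 8 for the 248 genes higher (red) and the 76 genes lower (blue) beyond WT by over 2-fold. Boxes span the quartiles with the median as a line, and whiskers the 10th to 90th percentile; medians move from 0.13 to 2.06 and from -0.07 to -1.28, the values of days 2 and 8 being those the genes were chosen on.

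The change of DNMT1-AID was also set against that of the lines in which UHRF1, or both proteins, carry the degron. Over all tested genes, 2.11% changed more upward and 5.57% more downward in DNMT1-AID than in UHRF1-AID, and 8.16% and 3.83% than in UHRF1/DNMT1-AID. Of the 248 genes, 14 were higher and 2 lower than in UHRF1-AID, and 18 higher and 7 lower than in UHRF1/DNMT1-AID, while 213 passed neither test. The 248 and 76 genes were chosen on the DNMT1-AID change itself, which favours larger changes in DNMT1-AID in these counts, so they are given as a description. Their median change beyond WT was 1.93, while the same measure was 1.65 for UHRF1-AID and 1.82 for the double degron line; the 3 values share the WT libraries. Of the 76 lower genes, 20 were lower than in UHRF1-AID and none was higher, and 7 were lower and 12 higher than in UHRF1/DNMT1-AID, with medians beyond WT of -1.19, -0.51 and -1.34. Of the 58 ISGs, 0 changed more upward and 12 more downward in DNMT1-AID than in UHRF1-AID, with a median difference of -0.54. Against UHRF1/DNMT1-AID the counts were 0 and 32, with a median of -0.87. Of the 22 antigen presentation genes, 2 were higher and 2 lower than in UHRF1-AID, and 0 and 8 than in UHRF1/DNMT1-AID. IFITM1 was not among the ISGs that differed: its difference from UHRF1-AID was 0.05 ± 0.28 (adjusted p = 0.954) and from UHRF1/DNMT1-AID -0.15 ± 0.28 (adjusted p = 0.791). KLK5 rose more in DNMT1-AID than in UHRF1-AID, by 1.99 ± 0.44 (adjusted p = 0.00404), and KRT23 rose more than in either line, by 0.94 ± 0.24 and 0.96 ± 0.24 (adjusted p = 0.0134 and 0.00894). TNFRSF1B likewise rose more than in either line, by 1.34 and 1.17 (adjusted p = 0.0045 and 0.012). EREG fell further in UHRF1/DNMT1-AID, so that its change in DNMT1-AID was higher by 1.62 ± 0.19 (adjusted p = 4.69e-06).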

How the data were processed

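Poly-A RNA of HCT116 cells was sequenced by the study as paired-end reads, and the authors deposited raw read counts per gene, 1 file per library, from reads aligned to hg38 with STAR and counted with featureCounts, as the submitters' processing notes and the study's methods name them. The annotation release, the strand setting and the treatment of reads that map to several places are not given in the sources used here, so that values of overlapping or near-identical genes are uncertain. Of 60648 gene IDs, 60462 matched GENCODE v44, from which names, lengths and GC content were taken. The 12 libraries had a median total of 22160961.5 counted reads.

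Protein-coding genes that passed edgeR's filterByExpr (minimum count of 10) were fitted over all 36 libraries of 12 groups, with TMM scaling and the quasi-likelihood test in edgeR 4.0.16 (limma 3.58.1, R 4.3.3). The difference between the DNMT1-AID and WT changes from day 2 to day 8 was the main contrast. P-values were adjusted by Benjamini-Hochberg over the 15415 genes tested, with a threshold of 0.05, and calls of more than 2-fold also required an absolute log2 fold change above 1. CPM in the text are TMM-scaled unless said otherwise, errors on log2 fold changes are standard errors and errors on CPM are SD over 3 libraries. Library sizes alone in place of TMM moved the median of all genes (log2) by -0.06 for the main contrast, -0.17 for the lines on day 8, 0.17 for WT over time, 0.11 for DNMT1-AID over time and -0.11 for the lines on day 2. Genes named are DNMT1 and UHRF1, the 12 highest and 12 lowest changes among genes called, with a mean of at least 5 CPM and with no overlap of the differences between days, up to 3 called members of smallest p per gene list and 1 in the other direction, and genes the study's text names. Further members of lists are named to complete a count, chosen after their values were seen. The contrast, members and lists were chosen with earlier results of these data known. Same-numbered libraries deviated together only between DNMT1-AID day 2 and day 8 (correlations of 0.119, 0.123 and 0.140), with 3 of 18 pairs over 0.1, so the numbers were taken to pair these libraries alone. The main fit had no block, and counts with a block within each line are given where they differ by over 1.5 times. Alternatives were other size factors, filters, gene sets and libraries, a replicate block, glmTreat, an offset for GC content and length, DESeq2 1.42.0 and leaving out each library; counting these per gene list and per named gene was chosen after seeing the data. The fit was also run on simulated data, the outcome of which is not given here. Results for some genes are not reported here.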

Additional observations from a re-analysis of the deposited data

Results flagged for a closer look

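The change from day 2 to day 8 in DNMT1-AID was tested against that in each of the other degron lines. The genes were chosen on the DNMT1-AID change itself, which tilts these counts toward larger changes in DNMT1-AID, so they are a description. Of the 248 genes higher beyond WT by over 2-fold, 14 were also higher and 2 lower than in UHRF1-AID, and 18 were higher and 7 lower than in UHRF1/DNMT1-AID. Of the 76 lower genes, 0 were higher and 20 lower than in UHRF1-AID, and 12 were higher and 7 lower than in UHRF1/DNMT1-AID.

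Among the leading genes, the DNMT1-AID change minus the UHRF1/DNMT1-AID change was 1.94 for SUSD2, 2.34 for AQP3, 1.62 for EREG and -1.60 for MDGA1 on the log2 scale. The DNMT1-AID change minus the UHRF1-AID change was 1.99 for KLK5, -1.02 for ACER2 and -1.02 for UNC13A. For the readthrough genes these differences were -0.84 against UHRF1-AID and 1.17 against UHRF1/DNMT1-AID for ARHGAP19-SLIT1, and -0.72 and 0.77 for ZFP91-CNTF, whose exons are shared with other genes.

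Outside the protein-coding genes, 85 genes were higher and 167 lower beyond WT by over 2-fold, of 7126 tested. One of them is the long non-coding ENSG00000267077 (3.10 ± 0.75), which lies opposite SMIM22.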

How the results depend on the processing

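Counts for whole comparisons are of genes past 2-fold (main values of the change beyond WT: 248 higher and 76 lower), and the causes were not tested. With the replicate block the change beyond WT gave 258 and 79, and with a block within each line, chosen after seeing the data, 301 and 89; that block gave 91 higher against UHRF1-AID. With library sizes only, lower genes numbered 263 for WT over time, 31 for the lines on day 2 and 585 on day 8. With all annotated genes, 232 were lower beyond WT; DNMT1-AID over time gave 4189 and 2069, WT over time 2832 and 1158, the lines on day 8 707 lower, and 83 and 324 were higher against UHRF1-AID and UHRF1/DNMT1-AID. With a test against 1.5-fold, 32 were higher and 6 lower beyond WT, 63 and 2 between the lines on day 2, 192 lower on day 8, 17 and 174 against UHRF1-AID and 9 and 4 against UHRF1/DNMT1-AID. With correction for GC content and length, 163 were higher beyond WT, DNMT1-AID over time gave 1820 and 433 and WT 923 and 224, and with the block as well 1817 and 438, 927 and 223, and 83 higher against UHRF1-AID. Among the named genes called, SPRED1 changed sign, from -0.37 to 0.01 with the correction and 0.0083 with correction and block. With only the libraries of each comparison, 86 were higher on day 2, 26 and 167 differed from UHRF1-AID, and 107 were lower than in UHRF1/DNMT1-AID. DESeq2 gave 80 higher against UHRF1-AID. Leaving out 1 library gave 194 to 271 higher and 58 to 132 lower beyond WT (132 without DNMT1-AID day 8 replicate 1), 83 to 124 higher and 4 to 15 lower on day 2 (83 without WT day 2 replicate 1, 4 without DNMT1-AID day 2 replicate 3), and 44 to 85 higher and 257 to 589 lower against UHRF1-AID (85 without its day 8 replicate 2, 589 without its day 2 replicate 3). Of 168 other counts, 132 were within 1.5 times the main one, and of 120 with a library left out, 113. Of 118 named genes called at any fold, 80 were called without each library in turn. By list, at any fold, leaving out 1 library lowered the members called from 19 to 11 for DNA replication (without DNMT1-AID day 2 replicate 1), from 6 to 3 for the secretory phenotype (the same library), from 7 to 4 for keratins (WT day 2 replicate 1), from 8 to 5 for lysosome and 7 to 4 for the methylation machinery (WT day 2 replicate 3), from 5 to 1 for lower p53 targets (WT day 2 replicate 2), and from 7 to 4 for cholesterol synthesis, 8 to 4 for mesenchymal genes and 5 to 1 for higher collagens (WT day 8 replicate 1); these are the lowest values, chosen after seeing the data.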
